A study of Felis catus with 23 samples.

Results

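A set of 7 microRNA (miRNA) names, of 2026 on the array, was followed across the serum of 23 cats: hsa-miR-16-5p, hsa-miR-15b-5p, hsa-miR-126-3p, hsa-miR-150-5p, hsa-miR-146a-5p, hsa-miR-142-3p and hsa-miR-191-5p. They were chosen by name, as miRNAs that are common in human blood, and because several of them were rarely measured above background in these same samples. Their low detection is therefore a description and is given without a test. The prefix hsa- marks the human probes and is left out from here on. They were read by 17 probes, with 2 probes for each name except miR-150-5p with 3 and miR-191-5p with 4, and by 30 spots per name on each array.

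Serum came from 11 cats with hypertrophic cardiomyopathy (abbreviated HCM, in which the heart muscle thickens) and from 12 healthy cats, with 1 single-colour Agilent array for human miRNAs per cat. Age, sex, breed and treatment are not given in the labels used here. In both groups blood was left to clot for 20 min and centrifuged for 5 min at 600 g before storage of the serum at -80 °C. The 3 slides each carried both groups, with the HCM arrays always in the first row and the healthy arrays in the second, so that row and group cannot be told apart.

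MiRNAs are short RNAs that guide a silencing complex to messenger RNAs through the seed near their 5′ end. The miRNAs of serum derive from blood cells, platelets and vessel lining as well as from solid tissues, and red cells broken during clotting add to them. Bulk serum cannot tell fewer contributing cells from less miRNA per cell.

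In human blood miR-16-5p is abundant in red cells, and it shares its seed with miR-15b-5p in the miR-15/16 family, which represses BCL2 and cyclins. MiR-126-3p is enriched in endothelium and platelets and lies in an intron of EGFL7. MiR-150-5p marks mature lymphocytes and in the mouse represses Myb, and miR-142-3p is restricted to cells of the blood-forming lineage, leukocytes among them. MiR-146a-5p is induced by NF-kB and represses TRAF6 and IRAK1. MiR-191-5p is expressed in many tissues and is often used as a reference in human plasma and serum studies.

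A spot was taken as above background where the scanner software flagged it as well above background, and a miRNA counted as detected on an array where at least 50% of the spots of 1 of its probes were so flagged. By this rule the 7 miRNAs made 12 detections, which fell on 4 of the 23 arrays. Over all 2026 names, counted by the probe with the highest mean alone, 64.3% were detected on 0 arrays and 6.66% on 1 to 3. The counts of the 7 were the same by that probe. Of the 7, 6 had a mean share of spots above background higher than that of between 65.1% and 72.2% of all names. MiR-16-5p (hsa-miR-16-5p) was detected on 3 arrays, HCM 10, healthy 16 and healthy 22. MiR-146a-5p was detected on HCM 10, HCM 12 and healthy 16. MiR-15b-5p and miR-142-3p were each detected on HCM 10 and healthy 16, miR-126-3p on healthy 16 and miR-150-5p on HCM 10. MiR-191-5p was detected on 0 arrays. Of the detections 6 were in the HCM group and 6 in the healthy group, on 2 arrays of each.

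By slide the detections were unequal. Slide 3 held 11 of the 12 detections, slide 1 held 1 and slide 2 held 0. Of 4682 used spots of the 7 miRNAs, 313 were well above background, with 287 on slide 3, 22 on slide 1 and 4 on slide 2. Over all miRNA names the share of such spots was 24.0% on slide 3 against 20.1% on slide 2 and 17.99% on slide 1. Slide 3 also had the lowest negative controls, with a mean of -0.32 ± 0.25 (SD, n = 8 arrays) against 1.19 ± 0.32 (n = 7) on slide 1, and the highest 75th percentile intensities, 381 ± 164 against 213 ± 110. Whether these slide differences bear on the detections was not tested.

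**Figure D1:**
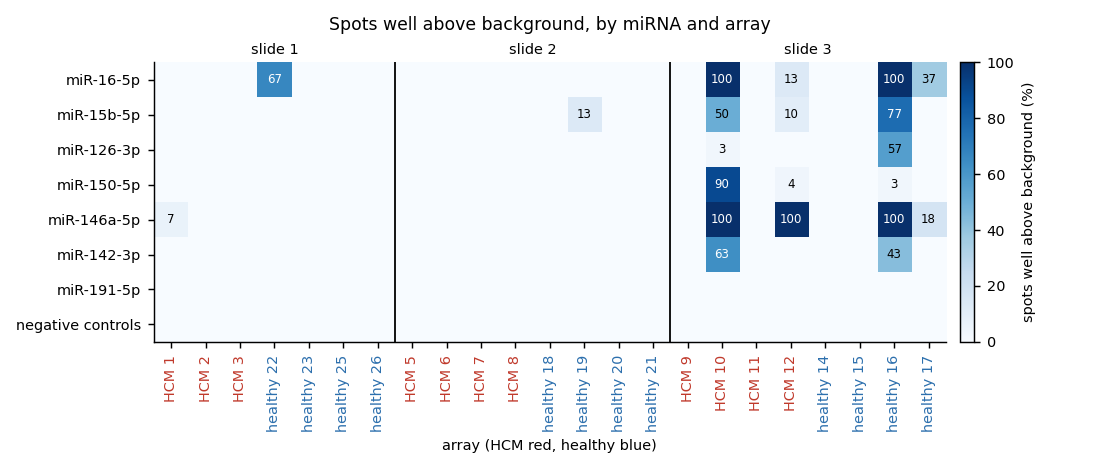
Percent of spots well above background for each of the 7 miRNAs (rows) on each of the 23 arrays (columns, grouped by slide, HCM in red and healthy in blue), with the negative control spots in the last row. Filled cells lie mainly on HCM 10, HCM 12, healthy 16 and healthy 17 of slide 3 and on healthy 22 of slide 1, and miR-191-5p has none.

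The share of spots above background ranged from none to all. On healthy 16, 29 of 29 spots of miR-16-5p were well above background, and on HCM 10 it was 30 of 30. On healthy 22 it was 20 of 30, on healthy 17 it was 11 of 30, and on HCM 12 it was 4 of 30. The other 18 arrays had none, so this miRNA passed from all spots to no spots over a few arrays of both groups.

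MiR-146a-5p showed 30 of 30 spots on HCM 10, 28 of 28 on HCM 12 and 30 of 30 on healthy 16. On healthy 17 it showed 5 of 28 and on HCM 1 it showed 2 of 29, and the remaining arrays showed none. Its full detection on HCM 12, where miR-16-5p reached 13.3% of spots, set it apart from miR-16-5p on that array.

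MiR-15b-5p, the seed relative of miR-16-5p, showed 23 of 30 spots on healthy 16 and 15 of 30 on HCM 10. It showed 4 of 30 on healthy 19 and 3 of 29 on HCM 12. Its partial detection was highest on the arrays where miR-16-5p had all of its spots above background, while healthy 19 had no such spot of miR-16-5p.

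MiR-150-5p showed 27 of 30 spots on HCM 10, 1 of 24 on HCM 12 and 1 of 30 on healthy 16. MiR-126-3p showed the reverse preference, with 17 of 30 spots on healthy 16 and 1 of 30 on HCM 10. MiR-142-3p showed 19 of 30 on HCM 10 and 13 of 30 on healthy 16. The lymphocyte miRNA was thus read mainly in 1 cat with HCM and the endothelial miRNA mainly in 1 healthy cat, and a single cat per group does not describe a group.

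The probes of a miRNA differed in brightness on the same array. On healthy 16 the probes of miR-16-5p read 127 and 102, and those of miR-15b-5p read 25.1 and 6.25. The brighter probe of miR-146a-5p read 2.41 times the other on HCM 10, 2.34 times on HCM 12 and 2.70 times on healthy 16. The ratio of the 2 probes of miR-146a-5p thus moved little while its detection was complete on each of these 3 arrays. For miR-142-3p and miR-126-3p the dimmer probe was detected on 0 arrays.

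Raw intensity, which is the background-subtracted brightness of a spot on a linear scale, was then set against the negative control spots of the same array, 1000 spots of 7 control probes. The mean of these controls lay between -0.68 and 1.59 over the arrays, and the SD of single control spots between 1.06 and 1.40. At most 0.202% of them were flagged as well above background on any array. The lowest intensity that the software called well above background was between 5.91 and 7.48, so a miRNA could lie above the controls and still be below the call.

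Averaged over all spots of the name, miR-16-5p had a raw intensity of 0.0916 at its lowest, 0.696 at the median and 14.3 at its highest in the HCM arrays. In the healthy arrays it was 0.104, 1.28 and 115. The highest values were those of healthy 16 (115), HCM 10 (14.3), healthy 22 (8.04), healthy 17 (6.29) and HCM 12 (4.95), and the groups overlapped over nearly the whole range of the HCM arrays.

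MiR-15b-5p was between -0.59 and 7.41 in HCM with a median of 0.450, and between -0.41 and 15.7 in healthy cats with a median of 0.465. MiR-126-3p was between -0.47 and 2.87 in HCM with a median of 0.0126, and between -0.64 and 9.0 in healthy cats with a median of 0.290. For both, the single highest array was healthy 16, and without it no healthy array exceeded the highest HCM array.

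MiR-150-5p was between -0.47 and 8.19 in HCM with a median of 0.975, and between -0.81 and 3.33 in healthy cats with a median of 0.0788. MiR-146a-5p was between 0.0961 and 22.4 in HCM with a median of 0.475, and between -0.0142 and 22.2 in healthy cats with a median of 0.629. MiR-150-5p had its highest array in the HCM group (HCM 10), while miR-146a-5p reached almost the same maximum in both groups.

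MiR-142-3p was between 0.327 and 6.37 in HCM with a median of 1.18, and between 0.546 and 6.10 in healthy cats with a median of 1.32. MiR-191-5p was between -1.37 and -0.41 in HCM with a median of -0.67, and between -1.28 and -0.11 in healthy cats with a median of -0.65. MiR-191-5p was below 0 on all 23 arrays, and no array of either group stood out.

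**Figure D2:**
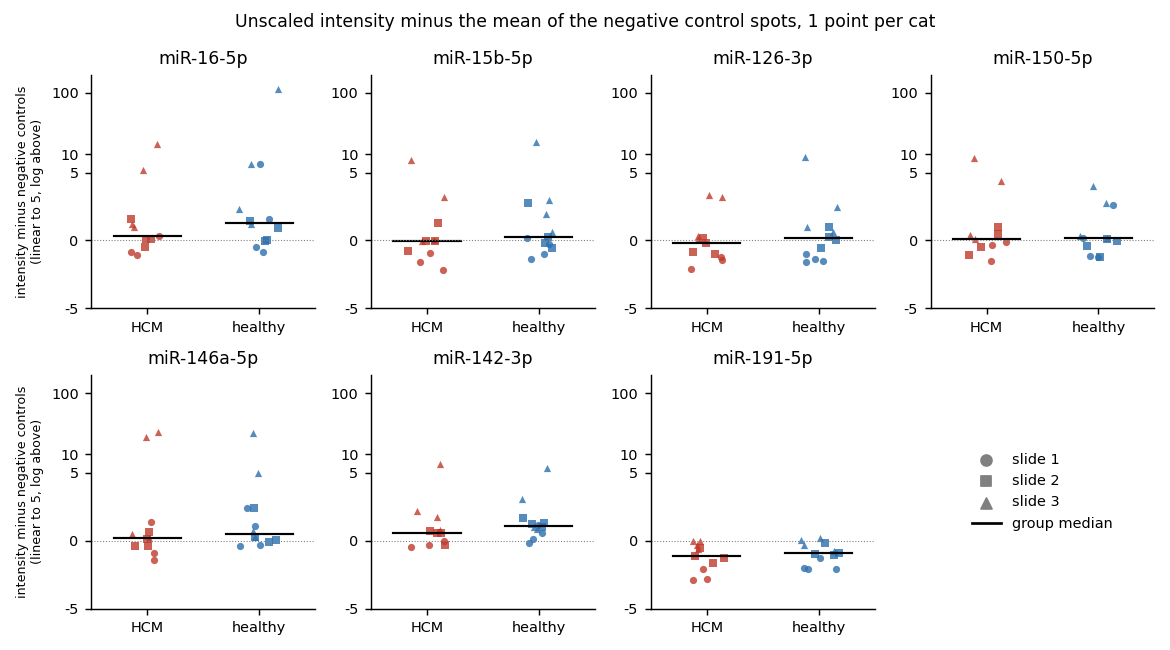
Unscaled intensity of each miRNA minus the mean of the negative control spots of the same array, 1 point per cat, HCM in red and healthy in blue, with slides as marker shapes and the group median as a line. The vertical axis is linear up to 5 and logarithmic above. Most cats of both groups sit near 0, a few cats of slide 3 sit above, and miR-191-5p is at most 0.192, above 0 on 3 of 23 arrays.

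A miRNA below the detection rule could still exceed the controls. MiR-142-3p was brighter than all 7 negative control probes on 15 of 23 arrays and dimmer than all of them on 0. MiR-16-5p exceeded all of them on 13 arrays, miR-146a-5p on 10, miR-15b-5p on 8, miR-126-3p on 7 and miR-150-5p on 6. This came to 59 of 161 pairs of a miRNA and an array, or 36.6%, beside a mean of 38.7% over all miRNA names (between 22.4% and 60.9% by array). As a group the 7 miRNAs therefore exceeded the controls at about the share of any name on this array.

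MiR-191-5p, unlike the other 6, exceeded all control probes on 0 arrays, and it was below every one of them on 17. Readings below every control probe were not particular to it. They were found on 10 arrays for miR-126-3p, 7 each for miR-15b-5p and miR-150-5p, 5 for miR-16-5p and 4 for miR-146a-5p. None of the 645 used spots of miR-191-5p was well above background. By a count of 0 this allows a share of up to 0.465% (counting error only, and spots of 1 array are not independent).

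Array brightness, taken as the 75th percentile intensity over the 508 probes detected on all arrays, varied from 90.5 to 699. Healthy 16, which gave the highest miR-16-5p reading, was among the dim arrays at 166 and ranked 19 of 23, and healthy 22 ranked 21 with 104. Healthy 15 was the brightest array at 699 and detected 0 of the 7 miRNAs. HCM 12 and HCM 10 ranked 2 and 3. Bright and dim arrays thus both carried detections.

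Across the 23 arrays the raw intensity of miR-126-3p rose with brightness in rank, with a Spearman rank correlation of 0.60 (permutation p = 0.0027, adjusted over 7 miRNAs 0.0189) and a Pearson r of 0.10 (p = 0.628, adjusted 0.88). Without healthy 20 and healthy 25, the 2 arrays farthest from the median brightness, the rank correlation was 0.50 and r was -0.0062. Within slides 1, 2 and 3 the rank correlation was 0.75, 0.57 and 0.05, so the ranking with brightness was not seen on slide 3, which held its 1 detection. On all 7 arrays of slide 1 miR-126-3p lay below every negative control probe.

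MiR-16-5p, miR-150-5p and miR-15b-5p had a rank correlation of 0.48, 0.46 and 0.45, each with an adjusted permutation p of 0.0552 (p = 0.0233, 0.0285 and 0.0315). Their Pearson r was -0.15, 0.36 and 0.03, with adjusted p of 0.838, 0.463 and 0.899. Within slides 1, 2 and 3 the rank correlation was 0.46, 0.57 and -0.05 for miR-16-5p, 0.61, 0.81 and 0.33 for miR-150-5p, and 0.32, 0.52 and 0.02 for miR-15b-5p. MiR-191-5p had a rank correlation of 0.35, miR-142-3p of -0.0099 and miR-146a-5p of -0.03, with adjusted p of 0.14, 0.965 and 0.965. Of these 7 rank relations 1 therefore passed the threshold of 0.05.

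The share of spots well above background did not follow brightness detectably. For the 6 miRNAs with any such spot, the rank correlation was between 0.03 and 0.26 and the lowest adjusted permutation p was 0.831. The negative controls themselves fell as arrays became brighter (rank correlation = -0.57, permutation p = 0.00498, adjusted over 2 relations 0.00996, r = -0.51, n = 23 arrays), with rank correlations of -0.07, -0.24 and -0.50 within slides 1, 2 and 3. With the negative controls subtracted, a measure added after the data were seen, the rank correlation with brightness was 0.70 for miR-150-5p, 0.59 for miR-126-3p, 0.55 for miR-191-5p, 0.51 for miR-16-5p and 0.50 for miR-15b-5p. Those 5 adjusted p lay between 0.00245 and 0.0243. What the subtraction of controls that fall with brightness adds to these relations was not tested. On slide 3 the rank correlation of miR-16-5p, miR-15b-5p and miR-126-3p lay between -0.05 and 0.07, that of miR-150-5p was 0.29 and that of miR-191-5p was 0.86. MiR-191-5p, which was detected on 0 arrays, had a rank correlation of 0 on slide 1 and -0.02 on slide 2.

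**Figure D3:**
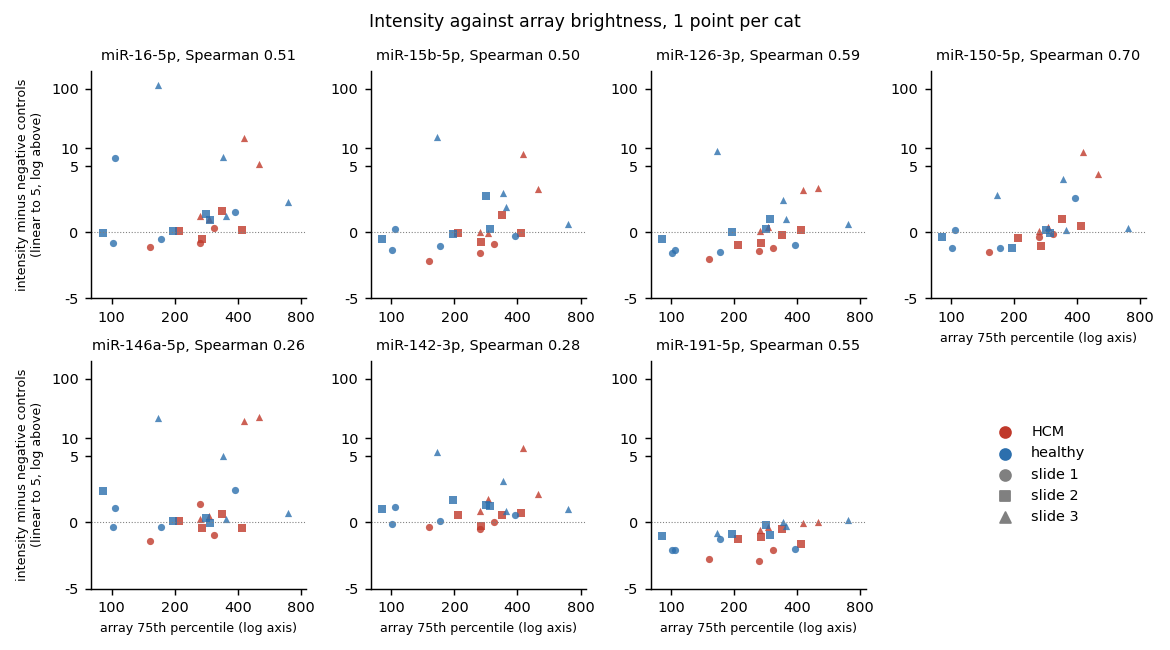
Unscaled intensity minus negative controls (vertical axis, linear up to 5 and logarithmic above) against the 75th percentile intensity of the array (horizontal log axis), 1 point per cat, with Spearman's rank correlation over 23 arrays above each panel. The highest reading of miR-16-5p is on an array of 166, while the brightest array, at 699, lies near the other arrays.

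MiR-451a, a red cell miRNA that was measured on all 23 arrays, ordered the cats much as miR-16-5p did. Its unscaled intensity was 3370 on healthy 16, 867 on HCM 10, 311 on healthy 17, 308 on healthy 22 and 277 on HCM 12. On the other 18 arrays it was between 7.19 and 126. The 5 arrays just named are those on which miR-16-5p had any spot well above background. Other red cell miRNAs ordered the cats otherwise on scaled values. MiR-486-5p was highest on HCM 5, HCM 6 and healthy 16, and miR-144-3p on HCM 10, healthy 19 and HCM 6. HCM 5, HCM 6 and healthy 19 had no spot of miR-16-5p well above background.

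Over the 23 arrays the intensity of miR-16-5p above the negative controls had a rank correlation of 0.91 with the unscaled log2 intensity of miR-451a (permutation p = 1e-05, the smallest that 100000 resamples can give, adjusted over 7 miRNAs 4.67e-05) and a Pearson r of 0.70 (adjusted p = 2.33e-05). Without healthy 16 and HCM 10 the rank correlation was 0.88 and r was 0.87, and within slides 1, 2 and 3 the rank correlation was 0.93, 1 and 0.98. The order of cats by miR-16-5p was therefore nearly that by miR-451a on each slide, also among cats in which miR-16-5p was not detected.

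The other 5 detected miRNAs had lower rank correlations with miR-451a on this unscaled measure but higher Pearson r, and the differences between these correlations were not tested. The rank correlation was 0.80 for miR-15b-5p, 0.79 for miR-150-5p, 0.67 for miR-142-3p, 0.62 for miR-146a-5p and 0.59 for miR-126-3p, with adjusted permutation p between 4.67e-05 and 0.00425, and r was between 0.75 and 0.85, beside 0.70 for miR-16-5p. Without healthy 16 and HCM 10, the rank correlation was 0.74, 0.73, 0.57, 0.52 and 0.47, with permutation p between 0.00028 and 0.0318. On slide 2 the rank correlation was 0.24 for miR-142-3p and 0.31 for miR-146a-5p and at least 0.57 for the others. MiR-191-5p had a rank correlation of 0.43 (p = 0.0394, adjusted 0.0394) and an r of 0.38 (p = 0.0782), and without the same 2 arrays its rank correlation was 0.37 (p = 0.102).

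These intensities share the array, its labelling and its brightness, and miR-451a itself had a rank correlation of 0.39 with brightness (permutation p = 0.0653, adjusted over 2 relations 0.0653, r = 0.15). With intensities scaled by the 75th percentile of the array, the rank correlation with miR-451a was 0.75 for miR-142-3p, 0.73 for miR-16-5p, 0.64 for miR-146a-5p, 0.59 for miR-15b-5p, 0.55 for miR-150-5p and 0.35 for miR-126-3p, the last with an adjusted p of 0.12. MiR-191-5p was at 0.12. With miR-23a-3p, a miRNA of many tissues including vessel wall and blood cells, scaled miR-146a-5p had a rank correlation of 0.76 (adjusted p = 0.00042) and within slides 0.71, 0.62 and 0.93. Of the other 6, miR-150-5p had 0.56 (adjusted p = 0.0205), miR-142-3p 0.49 and miR-16-5p 0.48 (both 0.0381), while miR-15b-5p, miR-126-3p and miR-191-5p did not pass, with adjusted p of 0.0874, 0.219 and 0.812. The relations with miR-451a and miR-23a-3p were chosen after the data were seen, and 55 relations were computed for the 7 miRNAs in all.

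**Figure D4:**
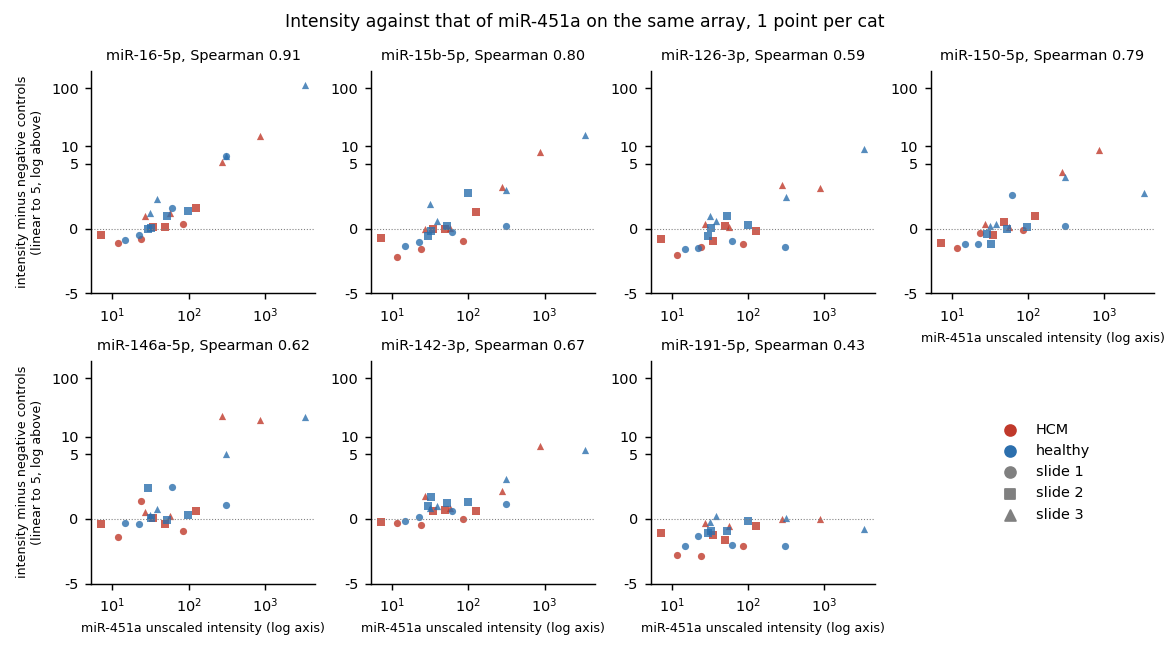
Unscaled intensity minus negative controls (vertical axis, linear up to 5 and logarithmic above) of each miRNA against the unscaled intensity of miR-451a on the same array (horizontal log axis), 1 point per cat, HCM in red and healthy in blue, slides as marker shapes. The points of miR-16-5p form 1 rising band (rank correlation = 0.91) that holds cats of both groups, and miR-191-5p is at most 0.192, above 0 on 3 of 23 arrays.

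Scaling to brightness changed the ratio between 2 detected arrays, and for miR-142-3p also which of them read higher. For the brighter probe of miR-16-5p, healthy 16 read 8.32 times HCM 10 in raw intensity and 21.4 times after scaling. For miR-142-3p the same pair of arrays stood at 0.924 before scaling and 2.38 after it, and for miR-146a-5p at 1.2 and 3.08. HCM 10 was among the brightest arrays and healthy 16 among the dimmest, so each scaled reading of HCM 10 fell relative to healthy 16. MiR-142-3p on HCM 10, although detected with 19 of 30 spots, was then at the floor described next.

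HCM was compared with healthy in several ways. Those that held the 7 miRNAs called none of them, and not every one of these could have done so. The comparison made here of miRNAs detected on at least 6 arrays held 543 names. Limma called none of them (0%) at the adjusted threshold of 0.05, and the 7 miRNAs had too few detections to enter it. The other comparisons were therefore made over all 2026 names without a detection filter.

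On scaled log2 intensity, values were floored at 2.45 (log2), the 5th percentile of the scaled intensities of detected probes. Limma called 0 of 2026 names (0%), and 43 had a p below 0.05 without adjustment (2.12%), none of them among the 7. MiR-16-5p was at the floor on 20 of 23 arrays and had a mean of 2.51 in HCM and 3.05 in healthy cats, a difference of -0.54 ± 0.46 (SE, n = 11 and 12, adjusted limma p = 1). For miR-15b-5p the difference was -0.23 ± 0.24 and for miR-126-3p -0.15 ± 0.16. Each of these differences was of about the size of its own standard error.

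The blood cell miRNAs were as close. The difference was -0.12 ± 0.10 for miR-142-3p, -0.09 ± 0.33 for miR-146a-5p and -0.01 ± 0.03 for miR-150-5p, each with an adjusted limma p of 1. MiR-191-5p was at the floor on all 23 arrays and has no difference on this scale. Of the 7, 6 were lower in HCM with a median difference of -0.12, whereas over all 2026 names 483 were lower, 234 higher and 1309 at the floor on every array. With 18 to 22 of 23 arrays at the floor, these means rest on 1 to 5 cats per miRNA. Some of these readings did not meet the detection rule, and all of those were on healthy arrays. On healthy 22 they were 2.83 for miR-15b-5p, 2.90 for miR-146a-5p and 2.85 for miR-142-3p. On healthy 20 miR-146a-5p read 3.36. MiR-150-5p read 2.64 on healthy 16 with 1 of 30 spots well above background, and 2.48 on HCM 10 with 27 of 30.

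Without healthy 16 the difference of miR-16-5p was -0.12, that of miR-15b-5p was 0.01, that of miR-126-3p was 0, that of miR-150-5p was 0.0032, that of miR-146a-5p was 0.16 and that of miR-142-3p was -0.04. Within slides 1, 2 and 3 the difference of miR-16-5p was -0.52, 0 and -1.11, all with an adjusted limma p of 1. On slide 2 the value of miR-146a-5p on healthy 20 was the only one of the 7 miRNAs above the floor.

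**Figure D5:**
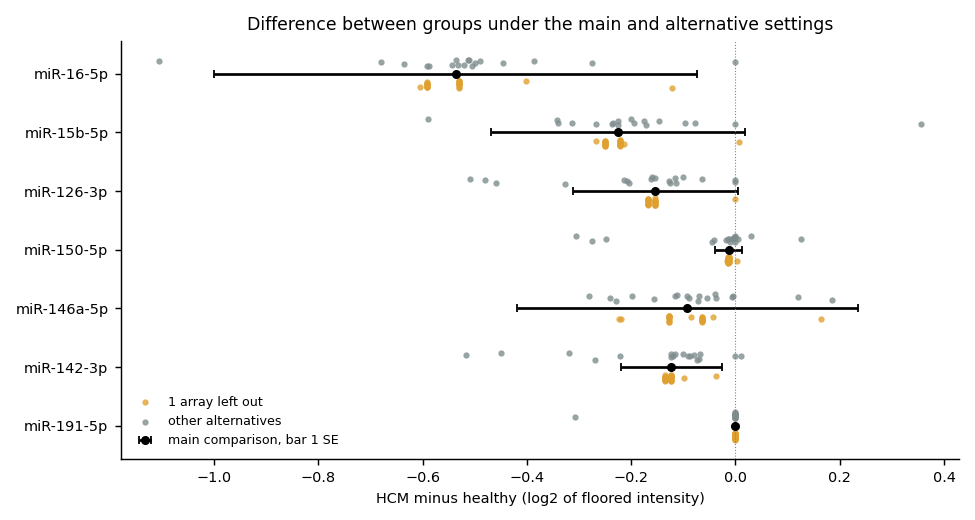
Difference HCM minus healthy of each miRNA on the floored log2 scale (black point, bar 1 SE, n = 11 and 12), with the values under other processing settings in grey and with 1 array left out in orange. The point farthest from the black one among those with 1 array left out is without healthy 16 for every miRNA except miR-191-5p, which has no spread at the floor.

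The share of spots well above background was compared by a permutation test over all 2026 names, which called 0 (0%), with 50 below a p of 0.05 without adjustment (2.47%). MiR-16-5p had 10.3% ± 30.02 of its spots above background in HCM and 16.9% ± 33.5 in healthy cats (permutation p = 0.695, adjusted 1). MiR-146a-5p had 18.8% ± 40.2 and 9.82% ± 28.9 (p = 0.577, adjusted 1), and miR-150-5p had 8.56% ± 27.0 and 0.278% ± 0.962 (p = 0.219, adjusted 1). The median share was 0 in both groups for each of the 7. The remaining miRNAs had p between 0.739 and 1. Any such spot was on 3 arrays for miR-150-5p, on 2 each for miR-126-3p and miR-142-3p and on 0 for miR-191-5p. With so few arrays this test could not reach the threshold for these miRNAs.

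Intensity minus negative controls, which needs no floor, was compared as an addition made after the data were seen, and 0 of 2026 names (0%) were called, with 34 below a p of 0.05 without adjustment (1.68%). MiR-16-5p was at 2.02 ± 4.60 in HCM and 11.2 ± 32.7 in healthy cats (SD, n = 11 and 12, permutation p = 0.624, adjusted 0.999). MiR-142-3p, which most often exceeded the controls, was at 1.13 ± 2.08 and 1.49 ± 1.63 (p = 0.634, adjusted 0.999). For each of the 7 the SD of at least 1 group was larger than the difference between the groups. The median of the HCM cats was below that of the healthy cats for each of the 7 and for 52.4% of all 2026 names. On scaled intensity it was below for 6 of the 7, the exception being miR-191-5p (-1.02 in HCM and -1.19 in healthy cats), and for 44.9% of all names. Over all names the unscaled difference in means had a median of -0.12.

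The negative controls had a mean of 0.444 ± 0.786 in HCM and 0.298 ± 0.577 in healthy cats. On slide 1 the groups did not overlap, with 1.41 to 1.59 on the HCM arrays and 0.742 to 1.15 on the healthy arrays. On slides 2 and 3 they overlapped. When labels were permuted within slides, 530 of 2026 names (26.2%) had a p below 0.05 on intensity minus negative controls, with a median difference of -0.22 over all names, and 0 were called. What the subtracted controls add to that count was not tested. The lowest p among the 7 was 0.0536, that of miR-191-5p.

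The authors' deposited table held 12 of the 17 probes and 6 of the 7 miRNAs, without miR-191-5p. In it, too, healthy 16 had the highest value of miR-16-5p, 7.41 on the log2 scale for the brighter probe, against a median of 1.76. Limma on the authors' deposited log2 values called 1 of 965 names (0.104%), none of the 7, and the adjusted p of the 6 lay between 0.720 and 0.938. MiR-15b-5p was 0.36 higher in HCM there, and 0.34 lower when HCM 2 was left out, because the authors' deposited value of HCM 2 was 9.45 against a median of 1.75.

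Other miRNAs of blood cells were read unequally on the same arrays. Of a list of 22 other names common in human blood, 21 were on the array. Of these, 17 were detected on at least 6 arrays, beside 543 of all 2026 names. On all 23 arrays 9 were detected, among them miR-451a, miR-486-5p, miR-92a-3p and miR-21-5p. MiR-19b-3p was detected on 10, miR-26a-5p on 9 and miR-155-5p on 6. MiR-17-5p was detected on 3 arrays, miR-20a-5p on 2, let-7a-5p on 1 and miR-103a-3p on 0. Of the 17, 8 had their highest scaled value on healthy 16 and 5 on HCM 10, beside 6.45% and 5.16% of all 543 names. None of the 17 was called between the groups (12 lower and 5 higher in HCM, median -0.15).

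The partner arms of the same precursors were detected unequally. MiR-142-5p was detected on 18 arrays, and miR-150-3p and miR-191-3p on all 23, whereas miR-126-5p was detected on 2 and the 3p arms of miR-16, miR-15b and miR-146a on 0. The scaled values of miR-191-3p were highest on healthy 20, healthy 25 and healthy 22, which ranked 23, 22 and 21 in brightness. Those of miR-150-3p lay between 5.57 and 6.60 (log2) over all arrays. Of the other names with the miR-15/16 seed, miR-497-5p was detected on 19 arrays, miR-15a-5p on 4, and miR-195-5p and miR-424-5p on 0. MiR-15a-5p had its highest values on healthy 16, HCM 10 and healthy 22, as miR-16-5p did. No miRNA could be named as the most alike in pattern to any of the 7, since that needed detection on at least 6 arrays.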

How the data were processed

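Per the file headers, the deposited scanner files hold spot intensity on a linear scale from Agilent Feature Extraction 10.7.3.1, background already subtracted, with no normalization between arrays. They also hold other columns of 0 or 1, the flags of each spot, as deposited. The log2 values of the authors' deposited table have an unstated normalization; against the scanner values (r between 0.987 and 0.9998 per array) direction and scale were settled, and the medians lay between 2.98 and 3.315.

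Outlier spots were left out (3.06% of the spots of the 7 names), the other spots of a probe averaged, and each array divided by its 75th percentile over 508 probes detected on all 23 arrays. Values were floored at 5.45 (log2 2.45). The probe with the highest mean stood for a name in limma 3.58.1 (R 4.3.3), 2-sided, adjusted by Benjamini-Hochberg. The 1309 names at the floor on every array have no spread and were given a difference of 0 and a p of 1, outside the variance prior. Shares of spots, intensities above the controls and correlations were tested by 2-sided permutation with 100000 resamples, in Python 3.11.15 with numpy 2.4.6 and scipy 1.17.1. Negative control spots marked as outliers were left out as well. The scanner's mean signal was not among the columns used, so the normexp alternative took the median signal. Groups and replicate numbers came from the labels, which give 1 sample per cat. The number of arrays limits the precision.

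The 7 miRNAs and the lists were chosen with earlier results of these data known. The limma and permutation scripts were tested on simulated data. No cat genome or probe sequence was used, so neither positions nor sequences are given.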

Additional observations from a re-analysis of the deposited data

Results flagged for a closer look

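Among the spots that the scanner software marked as outliers, and that the comparisons left out, 2 were far above the negative controls while no other spot of their probe was well above background. A spot of miR-15b-5p on HCM 2 read 3039, whereas the other 14 spots of that probe lay between -1.38 and 0.64. The authors' deposited log2 value of that probe on HCM 2 was 9.45. A spot of miR-146a-5p on healthy 14 read 199, with the other 14 between -2.70 and 2.78, and the authors' deposited value there was 3.45. In all, 26 outlier spots of the 7 miRNAs were well above background where no other spot of their probe was, and the lowest of them read 6.57.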

How the results depend on the processing

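None of the 7 miRNAs passed the threshold between the groups under any alternative run. The number of names called at 6 arrays or more was 1 with a floor at the 1st percentile, 4 on the deposited log2 values, 7 on these without HCM 2, 4 on the total gene signal, 2 on slide 2 alone and 1 by the permutation test of ranks, against 0. Without a detection filter it was 1 on the deposited values and 2 on slide 2 alone, and for the share of spots it was 1 with the flag of a positive and significant signal. With each array left out in turn these 3 counts were all 0.

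Some signs turned. On the log2 scale miR-15b-5p was at 0.36 on the deposited values. There the value of HCM 2 was 9.45, on a probe with an outlier spot of 3039. Whether that spot is part of the deposited value is not stated. MiR-150-5p was at 0.0296 without scaling, 0.00505 after quantile normalization and 0.13 on total gene signal, miR-146a-5p at 0.19 without scaling and 0.12 on total gene signal, and miR-142-3p at 0.0104 without scaling. With the other flag the differences in percent of spots were 4.36 for miR-126-3p, -9.32 for miR-146a-5p and -5.84 for miR-142-3p. On scaled intensity above the controls the differences were -1.99 for miR-146a-5p and 0.388 for miR-191-5p. The cause was not tested.

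With 1 array left out, the log2 difference ranged from -0.60 to -0.12 for miR-16-5p, from -0.27 to 0.0075 for miR-15b-5p, from -0.17 to 0 for miR-126-3p, from -0.0164 to 0.0032 for miR-150-5p, from -0.22 to 0.16 for miR-146a-5p and from -0.13 to -0.04 for miR-142-3p, each highest without healthy 16. The difference in percent of spots ranged from -15.6 to 0.909 for miR-16-5p, from -6.47 to 4.27 for miR-15b-5p, from -4.85 to 0.303 for miR-126-3p, from 0.139 to 9.14 for miR-150-5p, from 0.868 to 17.2 for miR-146a-5p and from -3.61 to 5.76 for miR-142-3p.

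The rank correlation with brightness passed the threshold for miR-16-5p (0.49) and miR-150-5p (0.48) on the median of the scaling probes. With the controls subtracted it also passed for miR-16-5p (0.51), miR-15b-5p (0.50), miR-150-5p (0.70) and miR-191-5p (0.55). The subtracted controls themselves fell with brightness (rank correlation = -0.57), and what the subtraction adds to these relations was not tested. The rank correlation with brightness turned positive for miR-146a-5p (0.0613 on all probes, 0.26 with the controls subtracted) and miR-142-3p (0.0553 and 0.28). At the milder flag miR-142-3p was detected on 15 arrays, miR-16-5p on 12 and miR-191-5p on 0. Normexp moved the median of all names by -0.31, and the 7 miRNAs lay between -0.45 and -0.28 there.

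The values with HCM 2 left out of the deposited table, each slide alone and the control-subtracted measures were chosen after seeing the data. No paired analysis was possible because the groups share no replicate numbers. Detection near the limit of 5.91 to 7.48 restricts every comparison, since most readings lie below it.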
